A study of Mus musculus with 8 samples.

Results

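The Schlafen genes were followed in RNA-seq libraries from OT-I mouse CD8+ T cells, whose transgenic receptor recognises a peptide of ovalbumin. The family was taken as the rows of the deposited gene table with the symbols Slfn1, Slfn2, Slfn3, Slfn4, Slfn5, Slfn8 and Slfn9, which made 7 members of 43432 genes. The table held 11 symbols that begin with Slfn. The other 4 were Slfn14 (19 reads in 2 libraries), the antisense transcript Slfn5os (0 reads), the pseudogene Slfn10-ps and the Schlafen-like gene Slfnl1 (7 reads in 1 library), and they were not counted as members.

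All T cells were of the C57BL/6 strain and were kept for 72 hours in culture with dendritic cells (DC) that bore antigen, after which the cells that had divided were sorted. The groups differed by the DC partner. In 3 libraries the partner was the migratory CD103+ subset (CD103 DC), in 3 it was the resident CD8a+ subset (CD8a DC), and in 2, numbered 2 and 3, the migratory CD11b+ subset (CD11b DC). No library of T cells without DC and no undivided T cells were analysed here, so each value compares one DC partner with another. No label states that replicate libraries derive from different cultures or mice, and p-values then reflect only how far these libraries spread, which may be technical.

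Schlafen genes take their name from the German word for sleeping, after the arrest of growth seen when Slfn1 is expressed in thymocytes. The mouse proteins fall into short forms (Slfn1 and Slfn2), intermediate forms (Slfn3 and Slfn4) and long forms that add a helicase-like domain (Slfn5, Slfn8 and Slfn9). Slfn2 is needed for T cells to stay quiescent and to survive activation, as known from the elektra mutant mouse, and many members are induced by type I interferon.

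One library, CD8a DC replicate 2, was less like the rest of its group. Its correlation with the 2 other libraries of its group was 0.931 and 0.933 (Pearson r over 18971 genes), against 0.942 to 0.952 for the other 5 pairs of libraries within a group. Values without it, a choice made after seeing the data, are given below for members whose call changes with it and for the calls among neighbours, gene lists and cell type markers. Recovered depth was 16293042 to 21973393 reads per library. T cell identity genes (Cd3e, Cd8a, Trac and 12 others) summed to 9652 ± 33.8 CPM (normalized counts per 1000000 of the sum over the library) with CD103+ DC, 8998 ± 589 with CD8a+ DC and 9850 ± 898 with CD11b+ DC (SD; n = 3, 3 and 2). Mitochondrially encoded transcripts took 6.69% to 7.72%, 9.12% to 11.8% and 7.02% to 7.20% of counts in the same order.

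All 7 members lay together on chromosome 11 within 264 kb of GRCm38, chr11:82951349-83215154, 5 on the plus strand and Slfn8 and Slfn9 on the minus strand. In order along the chromosome they were Slfn5 (chr11:82951349-82964840), Slfn9 (chr11:82978390-82991830), Slfn8 (chr11:83002158-83020810), Slfn2 (chr11:83065112-83070678), Slfn1 (chr11:83116849-83122670), Slfn4 (chr11:83175186-83190216) and Slfn3 (chr11:83191330-83215154). Slfn10-ps lay between Slfn8 and Slfn2. Each deposited span was the same as the span of the gene in GENCODE M21, and the exons used for levels per length are those of that annotation.

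The 250 bases before the RefSeq transcription start of each member (GRCm38) were searched on both strands for the core of the interferon-stimulated response element (GAAA, any 2 bases, then GAAA, or TTTC, any 2 bases, then TTTC on the other strand), the element through which type I interferon signalling acts. It was found in Slfn5, Slfn8 and Slfn9, the 3 long members, and its letters were not in the windows of Slfn1, Slfn2, Slfn3 and Slfn4. Of 32851 windows of this length before mouse RefSeq starts, 978 (2.98%) held it. The STAT element (TTC, any 3 bases, then GAA), which reads the same on both strands and shares the letters TTC and GAA with the first motif, was in none of the 7 members' windows and in 2306 (7.02%) of all windows. A match describes letters in a window and is no evidence of binding. The windows of Slfn8 and Slfn9 and of the short members Slfn1 and Slfn2 are shown because Slfn8 is the member called in the comparisons below, Slfn9 shares sequence with it, and Slfn1 and Slfn2 are the most abundant members without the element. For Slfn5 only the site is shown. Each sequence is written 5′ to 3′ on the strand of its gene, and capitals mark the element core.
Slfn8 (chr11:83020811-83021060, minus strand): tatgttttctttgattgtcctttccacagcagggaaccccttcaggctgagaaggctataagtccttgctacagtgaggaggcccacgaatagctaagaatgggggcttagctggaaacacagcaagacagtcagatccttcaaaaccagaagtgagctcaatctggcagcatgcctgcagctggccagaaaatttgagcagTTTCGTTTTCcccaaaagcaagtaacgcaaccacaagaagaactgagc
Slfn9 (chr11:82991831-82992080, minus strand): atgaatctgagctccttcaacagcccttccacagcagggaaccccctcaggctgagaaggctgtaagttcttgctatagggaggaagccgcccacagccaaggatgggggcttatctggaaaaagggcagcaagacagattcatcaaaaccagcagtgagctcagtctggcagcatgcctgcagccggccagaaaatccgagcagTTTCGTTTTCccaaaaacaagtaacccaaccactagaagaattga
Slfn1 (chr11:83116570-83116819, plus strand): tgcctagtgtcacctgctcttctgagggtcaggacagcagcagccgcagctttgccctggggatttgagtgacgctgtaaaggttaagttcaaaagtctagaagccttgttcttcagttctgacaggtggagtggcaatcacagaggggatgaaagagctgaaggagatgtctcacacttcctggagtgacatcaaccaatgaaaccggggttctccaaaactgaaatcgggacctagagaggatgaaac
Slfn2 (chr11:83064862-83065111, plus strand): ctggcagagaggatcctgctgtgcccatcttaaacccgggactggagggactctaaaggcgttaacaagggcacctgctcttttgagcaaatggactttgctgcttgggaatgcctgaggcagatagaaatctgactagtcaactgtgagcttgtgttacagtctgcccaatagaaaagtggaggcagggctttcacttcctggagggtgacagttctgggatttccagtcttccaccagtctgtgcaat
Slfn5 site (chr11:82951937-82951966, plus strand): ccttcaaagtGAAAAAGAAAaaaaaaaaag

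In the Slfn8 window the core lay 48 to 39 bases before the start, and in the Slfn9 window 45 to 36 bases before it, with the same 10 letters in both. From a second RefSeq start of Slfn8 the same site lay 136 to 127 bases upstream. In Slfn5 it lay 155 to 146 bases upstream, in other letters and the other orientation. The RefSeq start used for Slfn5, at base 82952102, lies inside the GENCODE span of the gene given above. Of the 250 bases of that window, 117 lie in a GENCODE exon, but 0 bases of the printed site do.

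Levels differed widely among members. Per kb of exon, over all 8 libraries, Slfn2 averaged 88.6 CPM per kb and Slfn1 71.0, followed by Slfn8 at 38.6. Slfn9 averaged 4.24, Slfn3 3.54 and Slfn5 1.79 CPM per kb, and Slfn4 0.0772. The ranges over libraries overlapped between each neighbour in this order down to Slfn5, except between Slfn8 (19.2 to 59.5) and Slfn9 (3.21 to 5.86). Slfn4 (0 to 0.226) lay below the lowest value of Slfn5 (0.571). The highest library was 1.68 times the lowest for Slfn2, 1.82 times for Slfn9, 2.72 times for Slfn1, 2.95 times for Slfn3, 3.11 times for Slfn8 and 5.97 times for Slfn5.

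**Figure D1:**
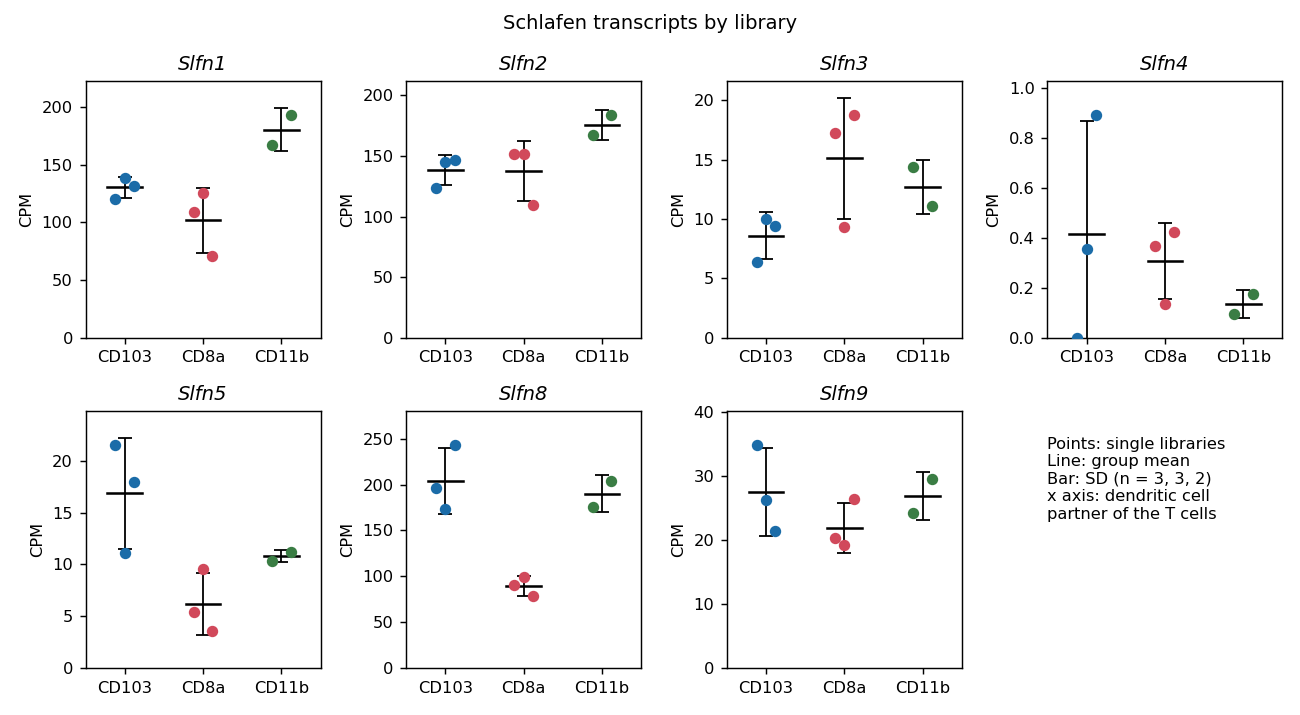
Level of each Schlafen member in CPM (y axis, from 0, a separate scale in each panel) by DC partner (x axis). Points are single libraries, lines group means and bars SD (n = 3, 3 and 2), cut at 0 for Slfn4. The 3 CD8a DC libraries of Slfn8 (78.3 to 99.6 CPM) sit below all 5 other libraries (173 to 244 CPM).

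Differences between groups were tested with limma-trend on log2(normalized count + 1) over the 18971 genes that averaged 1 normalized count or more, as all 7 members did, and a gene was called at a Benjamini-Hochberg adjusted p under 0.05. For CD103 DC against CD8a DC, 1 of 7 members was called, Slfn8, against a background of 1.44% of all genes tested. It was higher, a direction in which 0.891% of all genes were called. For CD103 DC against CD11b DC, 0 of 7 were called, by limma-trend, by edgeR or by DESeq2, against backgrounds of 0.332%, 0.422% and 2.91%. For CD8a DC against CD11b DC, 1 of 7 was called, again Slfn8, against a background of 1.97%. It was lower, as were 0.901% of all genes. An unadjusted limma-trend p under 0.05 was found for Slfn3, Slfn5 and Slfn8 in the first comparison. Slfn1 had one in the second, and Slfn1 and Slfn8 in the third. Of the 18971 genes, 2502, 1769 and 2577 had such a p.

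Both comparisons in which Slfn8 was called share the CD8a DC libraries, so the Slfn8 calls are not independent of each other. Median log2 fold changes over the 7 members were 0.25, 0.01 and -0.32 in the order above, beside 0.02, -0.0022 and -0.04 over all genes tested. In numbers of members, 4 were positive and 3 negative in each of the first 2 comparisons, and 2 were positive and 5 negative in the third.

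**Figure D2:**
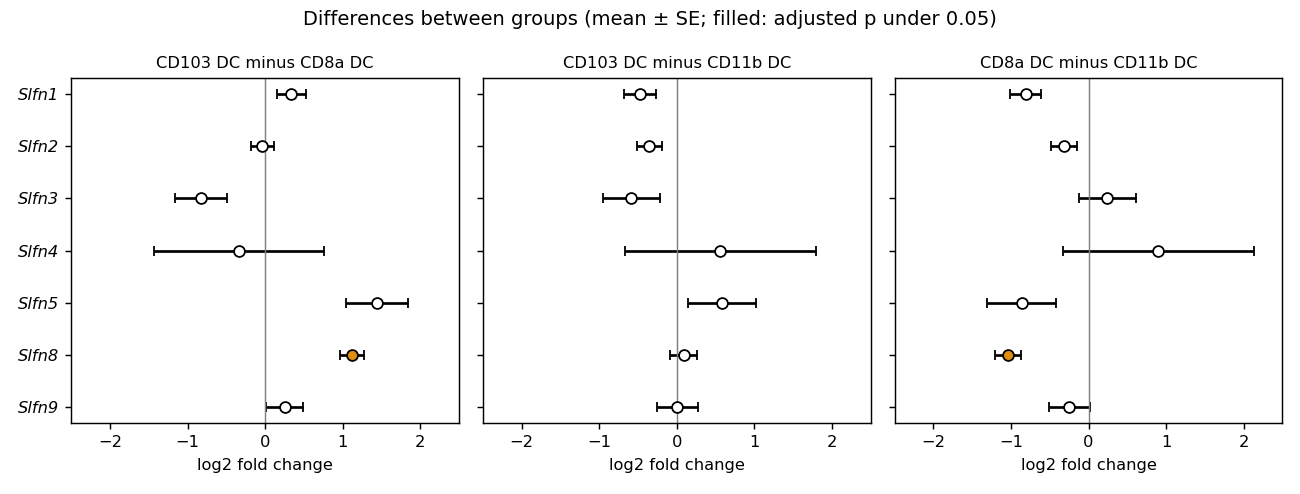
Log2 fold change ± SE (x axis) of each member (y axis) in the 3 comparisons, first group minus second, from the fit over all 8 libraries. Filled points passed an adjusted p of 0.05: Slfn8 alone, at 1.12 for CD103 DC against CD8a DC and -1.04 for CD8a DC against CD11b DC.

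Of the long members, Slfn8 was lower with CD8a+ DC than with either migratory subset. Slfn8 stood at 196, 173 and 244 CPM with CD103+ DC, at 90.8, 99.6 and 78.3 CPM with CD8a+ DC and at 176 and 204 CPM with CD11b+ DC. The CD8a DC libraries were all lower than every other library, and the CD103 DC and CD11b DC libraries overlapped. Group means were 204 ± 35.9, 89.6 ± 10.7 and 190 ± 20.1 CPM (SD; n = 3, 3 and 2). The log2 fold change for CD103 DC against CD8a DC was 1.12 (SE 0.15, 95% interval 0.79 to 1.46, limma-trend adjusted p = 0.004047). For CD8a DC against CD11b DC, Slfn8 fell by 1.04 on the log2 scale (SE 0.17, limma-trend adjusted p = 0.007148), which left it at 0.487 of the CD11b DC level. Between both migratory subsets the difference was 0.09, with a 95% interval of -0.28 to 0.46 (limma-trend adjusted p = 0.9323).

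The call for CD103 DC against CD8a DC held in each of 8 edgeR fits that left out 1 library (highest adjusted p = 0.0339), and edgeR on all 8 libraries called 1.7% of genes in that comparison and 2.44% for CD8a DC against CD11b DC. Without CD8a DC replicate 2 the log2 fold change was 1.22 (limma-trend adjusted p = 0.002209), and -1.14 against CD11b DC (limma-trend adjusted p = 0.003882). In limma-trend the call for CD103 DC against CD8a DC was lost without CD11b DC replicate 2 (adjusted p = 0.08242) or replicate 3 (adjusted p = 0.08646), with the fold change unmoved since neither library belongs to the 2 groups. The call against the CD11b DC group was lost in limma-trend without either CD11b DC library (adjusted p = 0.1926 and 0.2523) and in edgeR without replicate 3 (adjusted p = 0.122). In the authors' deposited table the adjusted p of Slfn8 was 6.315e-09, 0.891 and 4.152e-06 in the 3 comparisons, in a table that called 5.92%, 2.93% and 7.41% of the genes it gave an adjusted p.

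Slfn8, Slfn9 and Slfn10-ps share sequence, which the authors' read counting could split between them. Of the 50-base windows of Slfn8 transcripts, 14.6% also occurred in another Slfn gene, 10.1% in Slfn10-ps and 9.30% in Slfn9. With the 3 genes summed to 1 feature, the log2 fold change was 0.91 for CD103 DC against CD8a DC (limma-trend adjusted p = 0.005688) and -0.81 for CD8a DC against CD11b DC (limma-trend adjusted p = 0.01412).

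Slfn5, whose human counterpart is known as an interferon-induced repressor of transcription, showed the same order of group means at far lower levels. Slfn5 stood at 21.6, 11.1 and 18.0 CPM with CD103+ DC, 5.40, 9.51 and 3.61 CPM with CD8a+ DC and 10.4 and 11.2 CPM with CD11b+ DC. The CD8a DC libraries were below every other library, with replicate 2 close to the CD11b DC libraries. The log2 fold change for CD103 DC against CD8a DC was 1.44 (SE 0.40, 95% interval 0.59 to 2.30), and the limma-trend adjusted p was 0.1053. Without CD8a DC replicate 2 Slfn5 was called, at a log2 fold change of 1.83 (limma-trend adjusted p = 0.02611), and over the alternatives tried its adjusted p ran from 0.01789 to 0.3688. DESeq2 on all 8 libraries called it too (adjusted p = 0.01789, where DESeq2 called 5.47% of genes), as did the authors' deposited table (adjusted p = 0.01684). Reads of Slfn5 and of the antisense Slfn5os, which overlaps it and was given 0 reads, cannot be told apart without strand, and the strand setting is not given in the sources used here.

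Slfn9 varied within groups about as much as between them. Slfn9 stood at 34.9, 26.3 and 21.3 CPM with CD103+ DC, 20.3, 19.2 and 26.4 CPM with CD8a+ DC and 24.2 and 29.5 CPM with CD11b+ DC. The 3 groups overlapped in every comparison. Its log2 fold change for CD103 DC against CD8a DC was 0.25 (95% interval -0.25 to 0.76, limma-trend adjusted p = 0.7076), and 11.2% of its 50-base windows occurred in another Slfn gene.

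The short members were the most abundant per kb, and neither was called in any comparison. Slfn1 stood at 120, 139 and 132 CPM with CD103+ DC, 109, 126 and 71.1 CPM with CD8a+ DC and 168 and 194 CPM with CD11b+ DC. Both CD11b DC libraries were above all others, and the CD103 DC and CD8a DC libraries overlapped. For CD8a DC against CD11b DC, the log2 fold change was -0.81 (SE 0.21, 95% interval -1.25 to -0.37), just short of a call (limma-trend adjusted p = 0.06191). It was called without CD8a DC replicate 2 (log2 fold change -1.004, limma-trend adjusted p = 0.01036), and its adjusted p ran from 0.01036 to 0.5224 over the alternatives. The authors' deposited table gave an adjusted p of 0.0104, and DESeq2, which called 7.05% of genes there, 0.01079. The log2 fold change for CD103 DC against CD11b DC was -0.48 (limma-trend adjusted p = 0.4758).

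Slfn2 had the smallest spread over the 8 libraries among members above the limit of detection. Slfn2 stood at 124, 145 and 146 CPM with CD103+ DC, 152, 152 and 110 CPM with CD8a+ DC and 167 and 184 CPM with CD11b+ DC. The CD11b DC libraries were again above all others. For CD103 DC against CD8a DC, the log2 fold change was -0.04, with a 95% interval of -0.35 to 0.28 (limma-trend adjusted p = 0.9511), and its sign changed with library total scaling (0.02). Against the CD11b DC group the values were -0.35 for the CD103 DC group and -0.32 for the CD8a DC group (limma-trend adjusted p = 0.5377 and 0.4305).

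Of the intermediate members, Slfn3 had its highest mean with CD8a+ DC. Slfn3 stood at 6.37, 9.99 and 9.43 CPM with CD103+ DC, 17.2, 9.29 and 18.8 CPM with CD8a+ DC and 14.3 and 11.1 CPM with CD11b+ DC. CD8a DC replicate 2 lay among the CD103 DC libraries on this scale, while on the deposited normalized counts it lay just above them (185 against 120 to 182). The log2 fold change for CD103 DC against CD8a DC was -0.83 (SE 0.33, 95% interval -1.54 to -0.12, limma-trend adjusted p = 0.2913), and -1.13 without CD8a DC replicate 2 (limma-trend adjusted p = 0.1017). Slfn3 shares 7.39% of its 50-base windows with Slfn4 and 6.45% with the pseudogene Gm11427.

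Slfn4, known from myeloid cells, was at the limit of detection. The libraries held 0, 7 and 18 reads with CD103+ DC, 6, 3 and 8 reads with CD8a+ DC and 2 and 3 reads with CD11b+ DC. The groups overlapped, and a difference was not detectable at this depth. A library with 0 reads allows up to 3 reads by counting error alone, which was 0.157 CPM for CD103 DC replicate 1.

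Whether libraries of a pair of groups overlapped was counted apart from the test. On the deposited normalized counts, 3 of 7 members had no overlap for CD103 DC against CD8a DC (Slfn5 and Slfn8 higher, Slfn3 lower), as did 16.5% of all genes tested, 8.77% higher and 7.72% lower. For CD103 DC against CD11b DC, these were Slfn1, Slfn2 and Slfn3, all lower, which is 3 of 7 beside 28.1% of all genes (14.2% lower). For CD8a DC against CD11b DC, they were Slfn1, Slfn2, Slfn5 and Slfn8, all lower, 4 of 7 beside 27.9% (15.1% lower).

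Summed over the family, levels were 527 ± 39.0 CPM with CD103+ DC, 373 ± 56.7 CPM with CD8a+ DC and 597 ± 52.8 CPM with CD11b+ DC (SD; n = 3, 3 and 2). The libraries of the CD8a DC group (308 to 415 CPM) were below those of the CD103 DC group (503 to 572 CPM) and of the CD11b DC group (560 to 634 CPM). Of the summed group means, Slfn8 gave 204, 89.6 and 190 CPM, Slfn1 130, 102 and 181 CPM, and Slfn2 138, 138 and 176 CPM. Slfn8 and Slfn1 thus both had their lowest mean with CD8a+ DC. Slfn3, at 8.60, 15.1 and 12.7 CPM, had its highest mean there. The sum rests mostly on the abundant members and does not show that the family as a whole was lower with CD8a+ DC. In bulk RNA, fewer cells that express a gene and less RNA per cell cannot be told apart.

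Shares of the family total per kb of exon need no scaling between libraries. Slfn8 made up 23.4% ± 3.22 of the total with CD103+ DC, 13.1% ± 1.08 with CD8a+ DC and 17.9% ± 0.367 with CD11b+ DC. These ranges did not overlap (19.9% to 26.1%, 12.2% to 14.3% and 17.7% to 18.2%). Slfn2 made up 39.0% ± 1.70, 49.1% ± 1.25 and 40.8% ± 0.680, highest with CD8a+ DC, whose libraries (47.9% to 50.4%) were above all others. Slfn1 made up 32.9% ± 1.93, 32.1% ± 3.44 and 37.4% ± 0.617. Shares have a fixed total, so the share of 1 member rises when others fall. In CPM, Slfn2 averaged 138, 138 and 176 in the same order, and its level was not raised with CD8a+ DC.

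**Figure D3:**
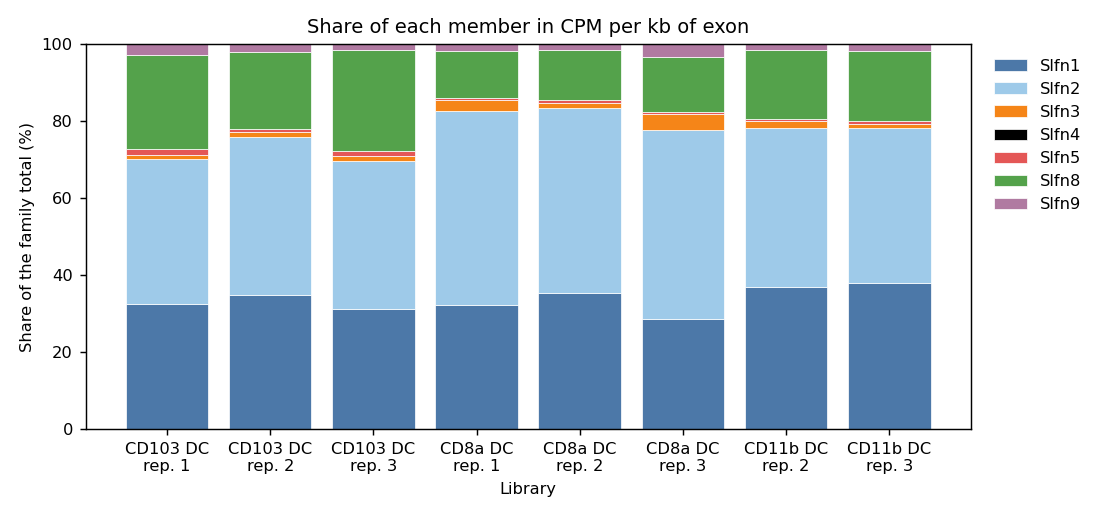
Share of each member in the family total of CPM per kb of exon (y axis, %) in each library (x axis). The Slfn8 segment is 12.2% to 14.3% with CD8a+ DC and 17.7% to 26.1% in the other 5.

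The ratio of Slfn8 to Slfn2 within a library, which carries no size factor, was 1.58, 1.19 and 1.66 with CD103+ DC, 0.598, 0.657 and 0.715 with CD8a+ DC and 1.05 and 1.11 with CD11b+ DC. All 3 groups were apart, with the CD103 DC libraries highest. The geometric mean ratio (the mean taken on the log2 scale) of the CD103 DC group was 2.24 times that of the CD8a DC group. It was 1.36 times that of the CD11b DC group. Exact two-sided permutation tests gave p = 0.1 for 3 against 3 libraries and p = 0.2 for 3 against 2, which are the smallest values these designs allow. Over the 21 tests of 7 ratios the Benjamini-Hochberg adjusted value of these exact tests was 0.3. The 7 ratios are a choice among the possible pairs of members, made by no stated rule. Most of them hold Slfn8, the member called above. How often ratios of other gene pairs are apart is not given here. The ratio of Slfn1 to Slfn2 had geometric means of 0.943, 0.728 and 1.03 and was also apart in all 3 comparisons, with the CD11b DC libraries highest. The other 5 ratios overlapped in at least 1 comparison. Slfn8 over Slfn1 and Slfn5 over Slfn2 overlapped for CD8a DC against CD11b DC (exact permutation p = 0.6 for each), and Slfn8 over Slfn9 and Slfn8 over Slfn3 for CD103 DC against CD11b DC (exact permutation p = 1.0 and 0.4). Slfn3 over Slfn2 overlapped in all 3 comparisons (exact permutation p = 0.3, 0.6 and 0.4). A ratio shows unequal change of its genes and does not say which of them changed.

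**Figure D4:**
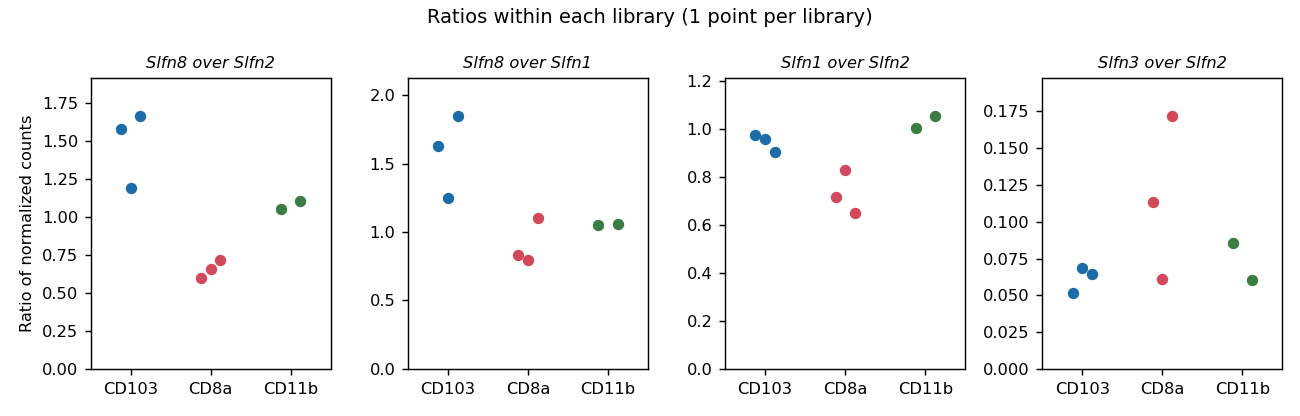
Ratio of deposited normalized counts of 2 members within a library (y axis, from 0) by DC partner (x axis), 1 point per library. Slfn8 over Slfn2 runs from 0.598 to 0.715 with CD8a+ DC, 1.05 to 1.11 with CD11b+ DC and 1.19 to 1.66 with CD103+ DC.

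The other genes at the locus were not called. A window of 500 kb that spans the cluster held 17 neighbours in the table, 12 of them tested. A neighbour is any gene whose symbol does not begin with Slfn. Among those tested is the pseudogene Gm11427, which shares 50-base windows with Slfn1, Slfn3 and Slfn4. In the 3 limma-trend comparisons 0 passed (lowest adjusted p = 0.4563, 0.5924 and 0.2268), beside 1.44%, 0.332% and 1.97% of all genes called. At these shares 12 genes would seldom hold a call, so the count does not set the neighbours apart from other genes. The 12 include Rad51d, a DNA repair gene, Nle1 and the adaptor subunit gene Ap2b1, whose log2 fold change for CD103 DC against CD8a DC was 0.02. The median over the 12 was -0.29 in that comparison, and 0.10 for CD8a DC against CD11b DC. Without CD8a DC replicate 2, limma-trend called 0 of the 12 in each comparison, beside 1.53%, 0.591% and 2.83% of all genes. These medians were then -0.023 and -0.068.

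**Figure D5:**
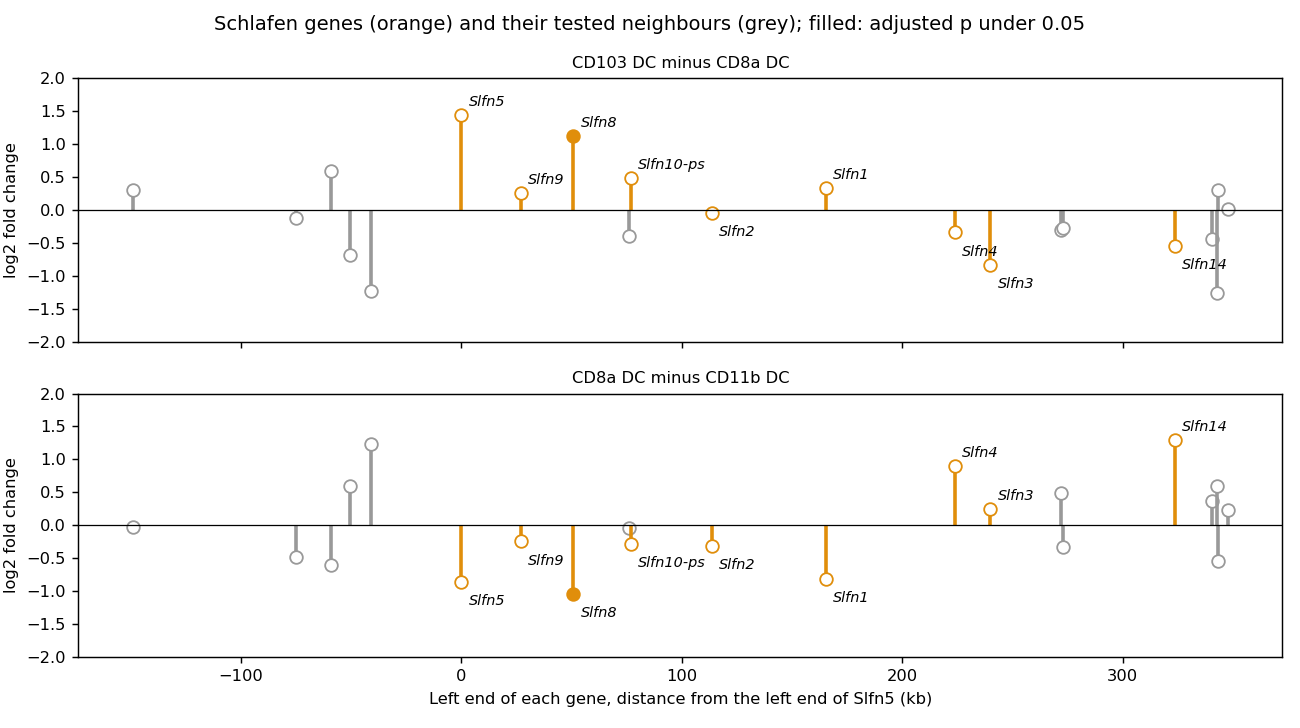
Log2 fold change (y axis) of Schlafen genes (orange, Slfn10-ps and Slfn14 included) and their 12 tested neighbours (grey) against the distance of each gene's left end from that of Slfn5 (x axis, kb), for CD103 DC minus CD8a DC (top) and CD8a DC minus CD11b DC (bottom). Slfn8 is the only filled point (adjusted p under 0.05) in each panel.

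Members differed among themselves in their pattern over the 8 libraries. Likeness was measured as the root mean square difference of log2(normalized count + 1), each gene centred on its mean over the 8 libraries, and it describes these libraries only. Among the 6 members that averaged 50 normalized counts or more, which leaves out Slfn4, the nearest pair was Slfn1 and Slfn2 (0.23) and the farthest Slfn3 and Slfn5 (1.23). Slfn5 and Slfn8 differed by 0.39. This measure also depends on how far each gene varied. The SD over the 8 libraries on the same scale was 0.39 for Slfn1, 0.22 for Slfn2 and 0.49 for Slfn3. It was 0.77 for Slfn5, 0.56 for Slfn8 and 0.26 for Slfn9. A gene that did not vary would lie 0.22 from Slfn2, so the small value for Slfn1 and Slfn2 does not by itself show a shared pattern. Outside the family, among 9843 genes compared, the nearest to Slfn8 were Traj17, a T cell receptor joining segment (0.13), and Macf1, a large cytoskeletal linker gene (0.17). Macf1 stood at 2279 ± 175, 1162 ± 86.0 and 2579 ± 101 CPM, and its limma-trend adjusted p was 0.0004562 for CD103 DC against CD8a DC and 0.0002024 for CD8a DC against CD11b DC. Traj17, the nearer gene, was not called there (limma-trend adjusted p = 0.3006 and 0.4092). Both genes were chosen for a pattern like that of Slfn8, so these values are a description.

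For Slfn5 the nearest genes were Il15ra, which encodes a chain of the interleukin 15 receptor (0.27), and the kinesin gene Kif13a (0.28). For Slfn1 they were Clec2d (0.12) and Ogt (0.12), an enzyme that adds sugar to proteins, and for Slfn2 Arhgap45 (0.05) and Stx16 (0.06). Slfn3 lay nearest to Rilpl1 (0.14) and Trmt10b (0.17), and Slfn9 to E2f4 (0.10) and Ftsj1 (0.10).

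Some genes of the type I interferon response, the pathway known to induce many Schlafen genes, were also lower with CD8a+ DC. Of 49 tested genes of a list that holds no Schlafen gene, 6 rose and 0 fell for CD103 DC against CD8a DC, 0 were called for CD103 DC against CD11b DC, and 0 rose and 14 fell for CD8a DC against CD11b DC. Of all genes tested 0.891% rose in the first comparison and 0.901% fell in the third. Without CD8a DC replicate 2 these counts were 8 and 0, then 0 and 2, then 0 and 19, where 1.53%, 0.591% and 2.83% of all genes were called. The median log2 fold change of the list was 0.56, -0.30 and -0.86 in the 3 comparisons, with 44, 8 and 1 of the 49 positive. The median of the Schlafen genes was 0.25, 0.01 and -0.32. No test of the list as a whole was made, and a part of interferon signalling in the Slfn8 values was not tested.

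Rnf213, an interferon-induced ubiquitin ligase, stood at 496 ± 42.3 CPM with CD103+ DC, 177 ± 34.4 with CD8a+ DC and 618 ± 113 with CD11b+ DC. Its log2 fold change was 1.45 in the first comparison and -1.76 in the third (limma-trend adjusted p = 0.0006204 and 0.0002167). Lgals3bp, Zbp1, a sensor of nucleic acids, and Isg15, a ubiquitin-like protein, were the other members named by smallest adjusted p in the first comparison, at log2 fold changes of 1.18, 1.11 and 3.05. In the third comparison Xaf1 fell by 1.71, Lgals3bp by 1.44 and Zbp1 by 1.53 on the log2 scale.

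Genes of T cell quiescence, the state in which Slfn2 is known to act, had 2 calls in each of the comparisons in which Slfn8 was called. That is 8% of the 25 tested, beside 1.44% and 1.97% of all genes. Txnip, an inhibitor of glucose uptake, rose (log2 fold change 0.85, limma-trend adjusted p = 0.006363) and Klf2, a transcription factor of resting T cells, fell by 1.11 (limma-trend adjusted p = 0.03075) for CD103 DC against CD8a DC. For CD8a DC against CD11b DC, Txnip fell by 1.39 and Il7r, the interleukin 7 receptor, by 0.78 (limma-trend adjusted p = 0.0003691 and 0.0233). Without CD8a DC replicate 2 the number that fell in this comparison was 4, where 2.83% of all genes were called. In CD103 DC against CD11b DC, limma-trend called 0 of 25. In numbers of genes, 13 of 25 were positive for CD103 DC against CD8a DC, while 18 were negative for CD103 DC against CD11b DC and 17 for CD8a DC against CD11b DC (median log2 fold change 0.01, -0.15 and -0.15).

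Markers of other cells moved with the groups in part. The 21 DC markers summed to 920 to 1052 CPM with CD103+ DC, 377 to 978 CPM with CD8a+ DC and 788 to 924 CPM with CD11b+ DC. Of 19 tested, 5 rose for CD103 DC against CD8a DC (H2-Aa, Cd83, Ccl22, Flt3 and Cd74). For CD103 DC against CD11b DC, 1 rose (H2-Aa) and 1 fell (Sirpa). In CD8a DC against CD11b DC 3 fell (Ccl22, Sirpa and Ccl17), beside 1.44%, 0.332% and 1.97% of all genes called in the 3 comparisons. Without CD8a DC replicate 2 the counts were 7 that rose, then 3 that rose and 1 that fell, then 6 that fell. Of all genes 1.53%, 0.591% and 2.83% were then called. Itgae, which activated CD8+ T cells also express, made up the largest part, at 411 ± 32.6, 402 ± 203 and 302 ± 25.4 CPM (SD). The sums therefore do not show how the other markers moved. The median log2 fold change of the 19 was 1.18, 0.39 and -0.94 in the 3 comparisons, with 16, 13 and 4 positive. Cd209a and Clec10a had 0 reads in all libraries.

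Macrophage and monocyte markers, the cells known for Slfn4, summed to 200 to 212, 113 to 186 and 227 to 258 CPM in the same order, mostly from Ctss and Ly6c2. Of 11 tested, limma-trend called 0 in any comparison, beside 1.44%, 0.332% and 1.97% of all genes. Without CD8a DC replicate 2 it called 1 of 10 (Ccr2, which fell for CD103 DC against CD8a DC), beside 1.53% of all genes there. Of the list, Adgre1, Cd14, Fcgr1, C1qb and C1qc had 0 reads. Neutrophil markers summed to under 1 CPM in every library. Ighm gave 975 to 1148 CPM of the B cell markers in group means, while Pax5 had 0 reads. Of 8 tested, 1 (Ighd) rose for CD103 DC against CD8a DC and against CD11b DC, with and without CD8a DC replicate 2. Among all genes, 1.44% and 0.332% were called with that library and 1.53% and 0.591% without it. The part of DC transcripts, of interferon signalling, of the mitochondrial share or of RNA quality in the Slfn8 values was not tested.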

How the data were processed

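RNA of 8 libraries of sorted OT-I T cells was sequenced. STAR 2.4.2a, DESeq2 and the build GRCm38 are named in the submitters' processing notes, while read counter, annotation release and strand setting are not stated in what was read here. The authors deposited, per the file headers, normalized counts (a signal, each gene count divided by 1 size factor per library). Gene GC percent and variance-stabilized log2 values were deposited too and entered no test. The authors' own comparisons came as a fold change (ratio), log2 fold change, p-value and adjusted p-value.

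The test was limma-trend (R 4.3.3, limma 3.58.1) on log2(normalized count + 1) for 18971 genes whose mean was at least 1, with 3 group means over all 8 libraries, 5 residual degrees of freedom and Benjamini-Hochberg adjustment over all genes. Fold changes on this scale understate changes of low genes. CPM is a normalized count scaled to its library total. Whole reads were recovered (100% of the values used lay within 0.1 of a whole read) for edgeR 4.0.16, which called 254, 63 and 365 genes in the 3 comparisons, and DESeq2 1.42.0, both alternatives. The floor of 3 reads covers counting error only. The limma-trend fit and the recovery of reads were checked on simulated data, while the edgeR and DESeq2 fits were not.

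Members and gene lists were chosen with earlier results of these data known. Every member is named. List genes are named by smallest adjusted p among those called, up to 4 per list and comparison. Genes alike in pattern are the nearest pair among those averaging 50 normalized counts or more. Lists are described by counts and medians, with no set test.

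Same-numbered libraries did not deviate together (correlations of -0.031 to 0.023), so no block was used. Promoter sequences and starts are from RefSeq (GRCm38), with all 7 members matched by symbol, and exons are from GENCODE M21.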

Additional observations from a re-analysis of the deposited data

How the results depend on the processing

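Counts rested on few libraries. By limma-trend 273, 63 and 374 genes were called (CD103 DC against CD8a DC, CD103 DC against CD11b DC, CD8a DC against CD11b DC), and DESeq2 called 831, 366 and 948. With no filter on low values the first count was 159. With 1 library left out the counts ran from 3 to 480, 0 to 238 and 0 to 537 in limma-trend, and from 60 to 479, 1 to 228 and 40 to 576 in edgeR (unadjusted p under 0.05: 1951 to 2833, 1200 to 2154 and 1689 to 2901 in limma-trend). Without CD11b DC replicate 2 or 3, a lone library has no spread of its own and is assumed to vary like the other groups. In those fits 65 or 68 genes had no residual variance and the prior degrees of freedom fell from 8.883 to 3.281 or 3.204. With such genes left out, chosen after seeing the data, 157 and 156, 10 and 1, and 59 and 29 genes were called. Library total scaling moved the split of higher and lower calls to 210 and 74 (from 169 and 104) and to 166 and 215 (from 203 and 171).

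Of the 7 members, DESeq2 called 2 (Slfn8 and Slfn5) in the first comparison and 2 (Slfn8 and Slfn1) in the third, beside 5.47% and 7.05% of genes. Under a filter at a mean of 10 (431 of 13724 genes called) or with library total scaling (381 of 18971), the 2 members called in the third were also Slfn8 and Slfn1. With 1 library left out, the number called ran from 0 to 2 in limma-trend in both, and from 1 to 2 and 0 to 2 in edgeR. It was 0 in the second throughout. With genes of no residual variance left out, Slfn8 was called in the first comparison without either CD11b DC library (adjusted p = 0.00862 and 0.00768), and 0 members were called in the third.

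Directions changed for some small differences that were not called, all of Slfn2, Slfn4, Slfn8 and Slfn9 and none of Slfn1, Slfn3 and Slfn5 under the alternatives tried. Slfn2 (CD103 DC against CD8a DC) was 0.020 with library total scaling and -0.20 to 0.060 with 1 library left out (edgeR -0.21 to 0.047). Slfn4 in that comparison was 0.017 with a pseudocount of 5, 0.39 by DESeq2 and -1.24 to 0.84 with 1 library left out (0.37 to 0.38 in the 2 edgeR fits that kept it). For CD103 DC against CD11b DC, the ranges with 1 library left out were -0.34 to 1.74 for Slfn4 (edgeR 1.19 to 2.05), -0.054 to 0.21 for Slfn8 (edgeR -0.056 to 0.21) and -0.19 to 0.17 for Slfn9 (edgeR -0.20 to 0.18). Slfn9 was -0.0061 with TMM scaling. With genes of no residual variance left out, Slfn8 was -0.021 and Slfn9 -0.13 without CD11b DC replicate 2.

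The replicate number as a block gave 181, 49 and 279 genes and 1, 0 and 1 members called, and Slfn9 was -0.062 for CD103 DC against CD11b DC. The libraries share only a number. Slfn4 was not tested under the filter at 10 or in most edgeR fits.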
